A study of Mus musculus with 12 samples.

Results

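The imprinted Dlk1-Meg3 domain of mouse chromosome 12 was described here through 6 genes of the 23412 in the count table, taken by symbol: the noncoding RNA genes Meg3, Rian and Mirg and the protein-coding genes Dlk1, Rtl1 and Dio3. Their levels were compared across 4 genotypes of male v6.5 mouse embryonic stem cells (mESCs) grown on gelatin with serum and LIF: WT, Hmgn1-/-, Hmgn2-/- and Hmgn1-/-Hmgn2-/-. RNA-seq of poly-A-selected RNA gave 12 libraries, 3 biological replicates of each genotype. The knockouts were made with CRISPR-Cas9 and grown from single cells, with frameshifts in Hmgn1 and in Hmgn2. For the double knockout, Hmgn1 was edited in cells of the Hmgn2-/- line. Each knockout genotype is 1 clone, so genotype and clone cannot be told apart, and the replicates measure variation within a clone.

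As background, the domain is expressed according to the parent of origin: Dlk1, Rtl1 and Dio3 from the paternal chromosome, Meg3, Rian, Mirg and many small RNAs from the maternal one. A control region between Dlk1 and Meg3, methylated on the paternal copy, sets this pattern, and mouse pluripotent cell lines are known to differ in whether the maternal noncoding RNAs are kept on. The counts analysed here sum both parental copies, so they give levels and not the parent of origin.

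Total counts were 31448468, 17614490 and 28524108 in replicates 1 to 3 of WT mESCs and 25953244, 21059862 and 21993042 in Hmgn1-/- mESCs. They were 25908890, 26486535 and 17337908 in Hmgn2-/- mESCs and 31005479, 22151507 and 26410485 in the double knockout. Levels below are CPM, counts brought to a common library size, scaled by the trimmed mean of M values (TMM), given for replicates 1, 2 and 3 in that order unless a mean with its SD is stated. The libraries are bulk, so fewer cells that express a gene and less of its RNA in each cell cannot be told apart.

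The targeted genes were read first. Hmgn1, which encodes a nucleosome-binding protein, stood at 661, 594 and 612 CPM in WT mESCs and at 138, 139 and 142 CPM in Hmgn1-/- mESCs. It stood at 546, 556 and 640 CPM in Hmgn2-/- mESCs and at 21.6, 19.9 and 21.5 CPM in the double knockout. Each library that carries an edited Hmgn1 was below each library that does not. Hmgn1 was also lower in the double knockout than in Hmgn1-/- mESCs, with a log2 FC of -2.73 (95% interval -2.87 to -2.6). Hmgn2, its paralog, stood at 137, 121 and 119 CPM in WT mESCs and at 106, 113 and 109 CPM in Hmgn1-/- mESCs. Its values were 50.9, 54.5 and 53.7 CPM in Hmgn2-/- mESCs and 53.9, 50.5 and 54.5 CPM in the double knockout. The 6 libraries with an edited Hmgn2 were below the other 6. The cells carried the markers of their label: the 12 embryonic stem cell markers summed to 7480 ± 115 CPM in WT mESCs, 7800 ± 269 in Hmgn1-/-, 7660 ± 641 in Hmgn2-/- and 7450 ± 414 in double knockout mESCs (SD, n = 3 each), and Pou5f1 was the most abundant of them in each genotype. Single markers moved both ways within these sums: 4, 1 and 2 of 12 passed as higher and 2, 1 and 2 as lower in Hmgn1-/-, Hmgn2-/- and double knockout mESCs, none past the threshold. Of all genes tested in these knockouts, 7.28%, 3.30% and 7.79% passed as higher and 10.1%, 6.66% and 10.2% as lower. Klf4 was higher in each, with log2 FC 0.93, 0.69 and 0.74, and Nanog lower, with -0.32, -0.50 and -0.45. With single libraries left out Klf4 kept each call, and Nanog lost its own in Hmgn1-/- mESCs without Hmgn1-/- replicate 2 and in Hmgn2-/- mESCs without WT replicate 3. In Hmgn1-/- mESCs Dppa4 kept its call in 1 of 6 such fits and Utf1 in 3, and in the double knockout Esrrb kept its call in 3 and Klf2 in 2.

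Read on the scale of CPM per kilobase of the longest annotated transcript, which allows genes to be compared, the level of Rian was the highest of the members in WT mESCs at 27.2 ± 0.0702 (SD, n = 3). Meg3 followed at 12.4 ± 0.854, Mirg at 3.84 ± 0.245, Dio3 at 2.66 ± 0.968, Dlk1 at 1.97 ± 0.453 and Rtl1 at 0.14 ± 0.0596 CPM per kilobase. The maternal noncoding RNAs were thus above the paternal protein-coding genes, and the neighbours Dio3 and Dlk1 overlapped, at 1.54 to 3.26 and 1.49 to 2.39 CPM per kilobase. With the union of annotated exons as the length, Dio3 at 2.66 CPM per kilobase came before Mirg at 2.01, while Rian at 12.1 stayed before Meg3 at 9.99. In the knockouts Dio3 stood below Dlk1, with mean levels of 0.415 CPM per kilobase in Hmgn1-/-, 0.231 in Hmgn2-/- and 0.345 in double knockout mESCs beside 1.71, 1.87 and 1.89 for Dlk1. Dio3 and Rtl1 were neighbours there and overlapped in Hmgn2-/- mESCs, at 0.205 to 0.247 and 0.137 to 0.262 CPM per kilobase, and not in the other knockouts. Meg3, Rian and Mirg kept the first places, and the members together took 0.0437% of the counts in WT mESCs, 0.0675% in Hmgn1-/-, 0.0613% in Hmgn2-/- and 0.0591% in double knockout mESCs.

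**Figure D1:**
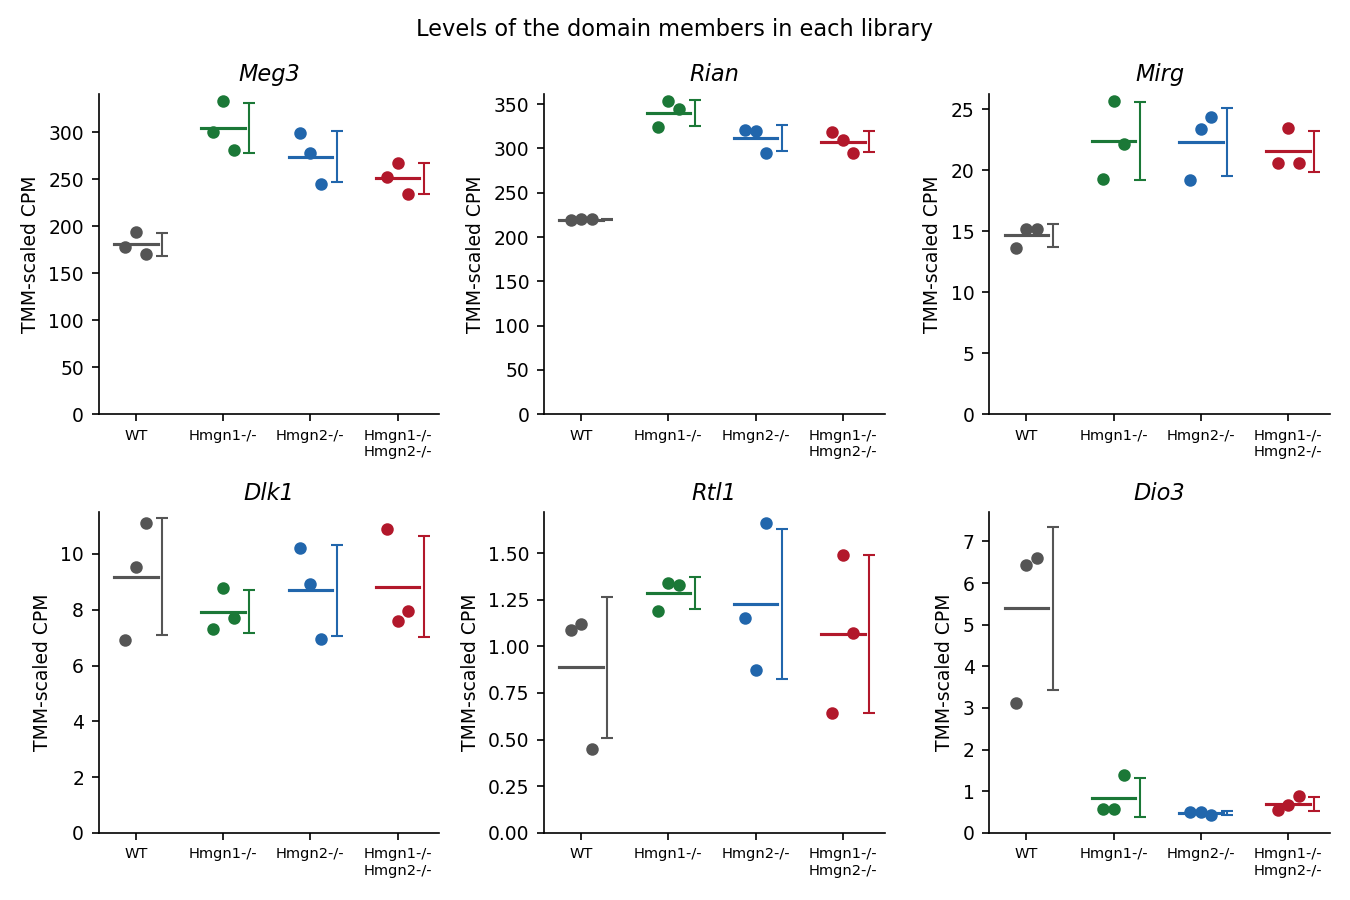
TMM-scaled CPM of each of the 6 domain members in the 12 libraries, 1 panel a gene with its own axis starting at 0; points are libraries, bars are group means and error bars are the SD (n = 3). Meg3, Rian and Mirg lie higher and Dio3 lower in each knockout library than in each WT library, while Dlk1 overlaps between all genotypes.

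Meg3, Rian and Mirg are transcribed in the same direction on the plus strand, in that order, over chr12:109540996-109749458, with Dlk1 before them and Dio3 after them. The promoters of Meg3, Dio3 and Dlk1 are printed because Meg3 leads the noncoding RNAs, Dio3 changed the other way and Dlk1 is the paternal partner of Meg3. They are from RefSeq on build GRCm38.p6, each 250 bases before to 50 bases after a start in that table, plus strand, at chr12:109540746-109541045 for Meg3, chr12:110278980-110279279 for Dio3 and chr12:109452573-109452872 for Dlk1. The Dlk1 window lies inside the RefSeq gene span, which begins at 109452485, so it does not hold the bases before that span. Of the 6 members, 5 had a promoter in that table, and Rtl1 is named only. Capitals mark TGCCGC, the letters bound by the imprint keeper ZFP57 in their methylated form, and TGACGTCA, the letters of the cyclic AMP response element, on either strand; the second was chosen after the sequence was read.
Meg3: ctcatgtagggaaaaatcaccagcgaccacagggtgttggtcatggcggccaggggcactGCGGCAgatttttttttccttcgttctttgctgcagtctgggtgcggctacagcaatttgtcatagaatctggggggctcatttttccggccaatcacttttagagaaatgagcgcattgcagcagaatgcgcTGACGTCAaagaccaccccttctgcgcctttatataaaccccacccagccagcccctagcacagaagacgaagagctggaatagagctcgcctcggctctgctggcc
Dio3: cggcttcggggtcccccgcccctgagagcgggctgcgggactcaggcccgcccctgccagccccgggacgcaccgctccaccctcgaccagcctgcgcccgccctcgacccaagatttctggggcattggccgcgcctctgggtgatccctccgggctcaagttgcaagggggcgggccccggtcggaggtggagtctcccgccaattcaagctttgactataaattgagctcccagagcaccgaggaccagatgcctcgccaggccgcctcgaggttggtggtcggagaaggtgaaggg
Dlk1: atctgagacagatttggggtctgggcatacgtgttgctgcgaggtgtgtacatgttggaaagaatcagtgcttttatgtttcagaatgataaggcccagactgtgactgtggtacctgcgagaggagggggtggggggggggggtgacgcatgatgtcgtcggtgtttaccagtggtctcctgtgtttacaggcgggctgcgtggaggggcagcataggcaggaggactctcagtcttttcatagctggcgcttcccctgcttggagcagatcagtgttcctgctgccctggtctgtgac

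The Meg3 promoter held 1 match to TGCCGC and 1 to TGACGTCA, and those of Dio3 and Dlk1 held no match to either in this window. Over all 32851 promoters of the table, 11.6% held TGCCGC and 1.79% held TGACGTCA, and a match is a description of letters, not of a bound site. CG pairs numbered 13 in the Meg3 promoter, 25 in that of Dio3 and 9 in that of Dlk1, beside a median of 7 over all promoters, and Rian had 0 and Mirg 10. A second Meg3 entry of the table held 1 CG pair.

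Meg3, the noncoding RNA at the head of the maternal transcripts, stood at 178, 194 and 170 CPM in WT mESCs. It stood at 300, 333 and 281 CPM in Hmgn1-/- mESCs, at 299, 278 and 245 CPM in Hmgn2-/- mESCs and at 252, 267 and 234 CPM in the double knockout. Each knockout library was above each WT library. Against WT, the level of Meg3 rose 1.68-fold in Hmgn1-/- mESCs (log2 FC 0.75, 95% interval 0.60 to 0.90), 1.52-fold in Hmgn2-/- mESCs (0.60, 0.40 to 0.80) and 1.38-fold in the double knockout (0.47, 0.32 to 0.61). The adjusted p was 3.97e-06, 9.36e-04 and 1.47e-04, in the quasi-likelihood test of edgeR, adjusted by Benjamini-Hochberg over all genes tested, in which an adjusted p under 0.01 counts as passing. Without WT replicate 3 the adjusted p of Meg3 in Hmgn2-/- mESCs was 0.0107, where the range over its 11 alternatives was 1.23e-07 to 0.0107.

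Rian, the host of a cluster of C/D-box snoRNAs, stood at 219, 220 and 220 CPM in WT mESCs. Its level was 324, 353 and 344 CPM in Hmgn1-/- mESCs, 321, 320 and 295 CPM in Hmgn2-/- mESCs and 318, 310 and 295 CPM in the double knockout. No knockout library came within the WT range. Rian rose 1.54-fold in Hmgn1-/- mESCs (log2 FC 0.63, 95% interval 0.51 to 0.74), 1.42-fold in Hmgn2-/- mESCs (0.51, 0.35 to 0.66) and 1.40-fold in the double knockout (0.48, 0.37 to 0.59). The edgeR quasi-likelihood test gave it a Benjamini-Hochberg adjusted p of 1.56e-06, 6.31e-04 and 1.46e-05. The ratio of Meg3 counts to Rian counts averaged 0.823 ± 0.0575 in WT mESCs, 0.896 ± 0.069 in Hmgn1-/-, 0.877 ± 0.05 in Hmgn2-/- and 0.815 ± 0.0386 in double knockout mESCs (SD, n = 3 each), and these ranges overlapped between all genotypes.

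Mirg, the host of a cluster of microRNAs and the last of the maternal genes in order, stood at 13.6, 15.2 and 15.2 CPM in WT mESCs. In Hmgn1-/- mESCs it was at 19.3, 25.7 and 22.2 CPM, in Hmgn2-/- mESCs at 19.2, 23.4 and 24.4 CPM and in the double knockout at 20.6, 23.5 and 20.6 CPM. All knockout libraries were above all WT libraries. Mirg rose 1.52-fold in Hmgn1-/- mESCs (log2 FC 0.61, 95% interval 0.36 to 0.85), 1.52-fold in Hmgn2-/- mESCs (0.61, 0.34 to 0.87) and 1.47-fold in the double knockout (0.55, 0.34 to 0.76), with Benjamini-Hochberg adjusted p of 0.00115, 0.00522 and 8.04e-04 in edgeR's quasi-likelihood test. In Hmgn2-/- mESCs the call for Mirg was lost without WT replicate 1 (adjusted p 0.0214), 2 (0.0202) or 3 (0.0228) and without Hmgn2-/- replicate 2 (0.0306), over a range of 2.25e-04 to 0.0306 in its 11 alternatives.

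Dio3, at the far end of the domain, encodes the deiodinase that inactivates thyroid hormone. Its level was 3.12, 6.44 and 6.61 CPM in WT mESCs, from 100, 115 and 191 counts. It was 0.576, 0.573 and 1.38 CPM in Hmgn1-/- mESCs (15, 12 and 30 counts), 0.5, 0.492 and 0.416 CPM in Hmgn2-/- mESCs (13, 13 and 7 counts) and 0.545, 0.677 and 0.877 CPM in the double knockout (17, 15 and 23 counts). Each knockout library was below each WT library, WT replicate 1 was the lowest of the WT libraries, and Hmgn1-/- replicate 3 was the highest of the knockouts. Dio3 fell to 0.157 of its WT level in Hmgn1-/- mESCs (log2 FC -2.67, 95% interval -3.44 to -1.90), to 0.09 in Hmgn2-/- mESCs (-3.47, -4.25 to -2.69) and to 0.131 in the double knockout (-2.94, -3.63 to -2.25). Its Benjamini-Hochberg adjusted p in edgeR's quasi-likelihood test was 8.86e-05, 7.78e-05 and 1.41e-05.

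Dlk1, a transmembrane protein with EGF-like repeats that acts as a non-canonical Notch ligand, stood at 6.93, 9.52 and 11.1 CPM in WT mESCs and at 7.3, 8.79 and 7.72 CPM in Hmgn1-/- mESCs. Its values were 10.2, 8.93 and 6.96 CPM in Hmgn2-/- mESCs and 10.9, 7.59 and 7.97 CPM in the double knockout. The 4 genotypes overlapped. Dlk1 did not pass the edgeR quasi-likelihood test in any comparison with WT: its log2 FC was -0.21 (95% interval -0.57 to 0.14, adjusted p 0.371) in Hmgn1-/-, -0.06 (-0.48 to 0.36, 0.88) in Hmgn2-/- and -0.05 (-0.44 to 0.33, 0.863) in double knockout mESCs. The sign of the last 2 values turned when some single libraries were left out.

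Rtl1, a retrotransposon-derived gene needed in the placenta, was near the limit of these libraries, with 13 to 35 counts in each. Its means were 0.887 ± 0.379 CPM in WT mESCs, 1.29 ± 0.0832 in Hmgn1-/-, 1.23 ± 0.402 in Hmgn2-/- and 1.07 ± 0.425 in double knockout mESCs (SD, n = 3 each). WT replicate 3, at 0.45 CPM, was the lowest of the 12 libraries, and the Hmgn1-/- libraries were above all WT libraries while the other knockouts overlapped WT. The log2 FC was 0.55 (95% interval -0.18 to 1.28) in Hmgn1-/-, 0.46 (-0.39 to 1.31) in Hmgn2-/- and 0.25 (-0.60 to 1.10) in double knockout mESCs, none past the edgeR quasi-likelihood test (adjusted p 0.254, 0.475 and 0.685). Without WT replicate 3 the log2 FC was 0.21 in Hmgn1-/- and 0.11 in Hmgn2-/- mESCs, and without WT replicate 1 it was 0.80 and 0.70. The value in the double knockout turned sign without WT replicate 3 (-0.10) or double knockout replicate 2 (-0.05). Rtl1 lies on the minus strand and its RefSeq span overlaps that of Meg3 over chr12:109564900-109571729 and that of Rian over chr12:109603945-109604418. An exon of Rtl1 also shares 1315 bases with the noncoding RNA entry 6430411K18Rik, which had 0 counts in each library. The strand setting of the counts is not given in the sources used here, so reads of either strand cannot be assigned from the table.

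**Figure D2:**
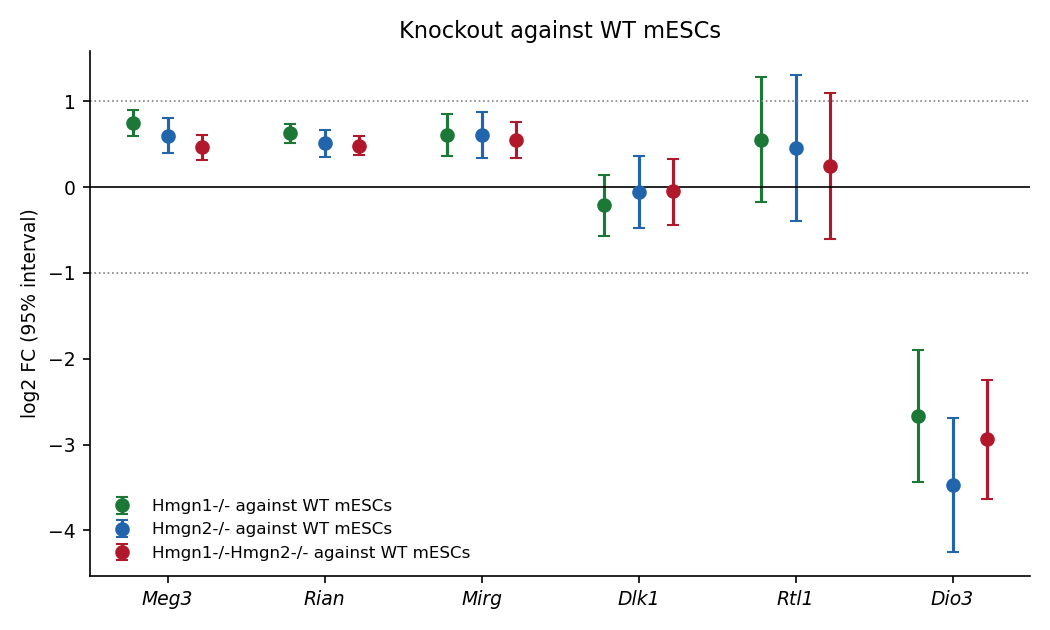
log2 FC of the 6 domain members in each knockout genotype against WT mESCs, with 95% intervals from the edgeR fit of 3 against 3 libraries; dots are genes and colours are genotypes. Meg3, Rian and Mirg lie between 0.47 and 0.75, Dio3 lies between -3.47 and -2.67, and the intervals of Dlk1 and Rtl1 cross 0.

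Set against the whole table, 3 of the 6 members rose and 1 fell in Hmgn1-/- mESCs, where 7.28% of the 13917 genes tested rose and 10.1% fell. In Hmgn2-/- mESCs 3 rose and 1 fell, where 3.30% of 14047 genes rose and 6.66% fell. In the double knockout 3 rose and 1 fell, where 7.79% of 14128 genes rose and 10.2% fell. All 6 members passed the filter on low counts in each comparison. With a log2 FC of at least 1 in size required as well, called past the threshold from here on, Dio3 was the 1 member left in each comparison: 5.08% of genes were past it and lower in Hmgn1-/-, 4.38% in Hmgn2-/- and 5.00% in double knockout mESCs, while 0.898%, 0.776% and 1.30% were past it and higher. The median log2 FC of the members was 0.58, 0.48 and 0.36 in the same order, beside 0.00, 0.01 and 0.00 over all genes.

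Libraries of the knockout and of WT did not overlap for 5 of 6 members in Hmgn1-/- mESCs, where 42.5% of genes did not, for 4 of 6 in Hmgn2-/- mESCs, where 36.1% did not, and for 4 of 6 in the double knockout, where 42.6% did not. The 3 comparisons share the WT libraries, and the members' values are therefore set side by side without a count of shared calls.

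Between the knockouts, which asks whether the members' levels depend on which Hmgn gene was edited, no member passed. The edgeR quasi-likelihood test called 0 of 6 members in each of the 3 comparisons at an adjusted p under 0.01. At an unadjusted p under 0.05 it gave 0 members for Hmgn2-/- against Hmgn1-/-, 2 for the double knockout against Hmgn1-/- and 0 for the double knockout against Hmgn2-/-, where 3.20%, 9.53% and 4.44% of all tested genes were under that limit. At an adjusted p under 0.01 DESeq2 called 0, 1 and 0 members. Over all genes the edgeR test called 48, 150 and 6 at that limit, 0.352%, 1.09% and 0.0434% of those tested, and DESeq2 65, 192 and 54. The edgeR counts were 26 to 61, 98 to 147 and 1 to 20 with single libraries left out. For the double knockout against Hmgn1-/- the replicate block gave 408 (2.98%) and no filter on low counts 250 (1.37%). For the double knockout against Hmgn2-/- they gave 77 and 30, and all 12 libraries in a single fit 24. The shares of 1.09% and 0.0434% are thus not stable backgrounds.

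The 2 members were Meg3 and Rian, lower in the double knockout than in Hmgn1-/- mESCs. Meg3 had a log2 FC of -0.28 there (95% interval -0.43 to -0.14, edgeR adjusted p 0.0502) and Rian one of -0.15 (-0.26 to -0.03, 0.322). The call for Meg3 was made by DESeq2 (adjusted p 0.00955) and by edgeR with no filter on low counts (0.0033) or with the replicate block (2.29e-06). Replicate numbers do not pair these 2 groups throughout, as given below. The range of the adjusted p was 2.29e-06 to 0.303 in 11 alternatives. Libraries did not overlap for 2 members in that comparison, Meg3 and Rian, where 15.1% of genes did not overlap.

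Hmgn2-/- against Hmgn1-/- mESCs gave Dio3 a log2 FC of -0.80 (95% interval -1.73 to 0.12), Meg3 -0.15 (-0.35 to 0.05), Rian -0.12 (-0.28 to 0.03), Mirg 0.00 (-0.29 to 0.29), Dlk1 0.15 (-0.19 to 0.50) and Rtl1 -0.10 (-0.73 to 0.53). Rian and Dio3 did not overlap there, 2 of 6 members beside 8.06% of genes. The double knockout against its parental Hmgn2-/- line gave Dio3 0.54 (-0.19 to 1.27), Meg3 -0.13 (-0.32 to 0.07), Rian -0.02 (-0.17 to 0.13), Mirg -0.05 (-0.30 to 0.21), Dlk1 0.01 (-0.39 to 0.41) and Rtl1 -0.20 (-1.01 to 0.61). Dio3 did not overlap there, 1 of 6 beside 10.1% of genes. These intervals bound the differences and do not show that the lines have equal levels.

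Whether the effects of both edits add on the log2 scale was tested over all 12 libraries as a departure from additivity. The single-knockout values of Meg3 sum to 1.35, and the double knockout against WT stood at 0.47. For Rian the sum was 1.13 and the double knockout 0.48, for Mirg 1.21 and 0.55, and for Dio3 -6.15 and -2.94. The double knockout thus lay closer to each single knockout than to the sum of both for these 4 genes. The departure was -0.87 for Meg3 (95% interval -1.13 to -0.62, adjusted p 2.07e-04), -0.64 for Rian (-0.82 to -0.47, 1.12e-04) and 3.22 for Dio3 (1.97 to 4.47, 0.00183) in the quasi-likelihood test of edgeR, adjusted by Benjamini-Hochberg. That makes 3 of 6 members, where 6.32% of 14323 genes were called, and Dio3 was past the threshold. Mirg had a departure of -0.65 (-1.01 to -0.29) and an edgeR adjusted p of 0.0175. It was called by DESeq2 (0.00435) and by edgeR with the replicate block (0.00168) or no filter on low counts (0.00882). The range of its adjusted p over 16 alternatives was 0.00168 to 0.0521. Dlk1 at 0.23 (-0.33 to 0.79) and Rtl1 at -0.75 (-1.86 to 0.36) did not pass. The edited gene Hmgn1 itself departed by -2.63 (95% interval -2.84 to -2.42) and was past the threshold. Markers of other cell types departed in the same edgeR test, where 499 of 14323 genes were past the threshold. Past it and higher were 3 of 7 tested trophoblast, 3 of 5 fibroblast and 2 of 8 primed epiblast markers. Past it and lower were 6 of 12 primitive endoderm markers, and no embryonic stem cell or neural marker was past it. Their part in the members' departure was not tested.

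A depth limit applies to Dio3. A sum of the single-knockout values would put it at 2.37, 1.69 and 1.99 counts in the double knockout libraries, under a floor of 3 counts, where 17, 15 and 23 were counted. Since the double knockout was edited from the Hmgn2-/- line, the departure also holds any difference between clones. A shift shared by all knockout lines against WT would give a departure as well.

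**Figure D3:**
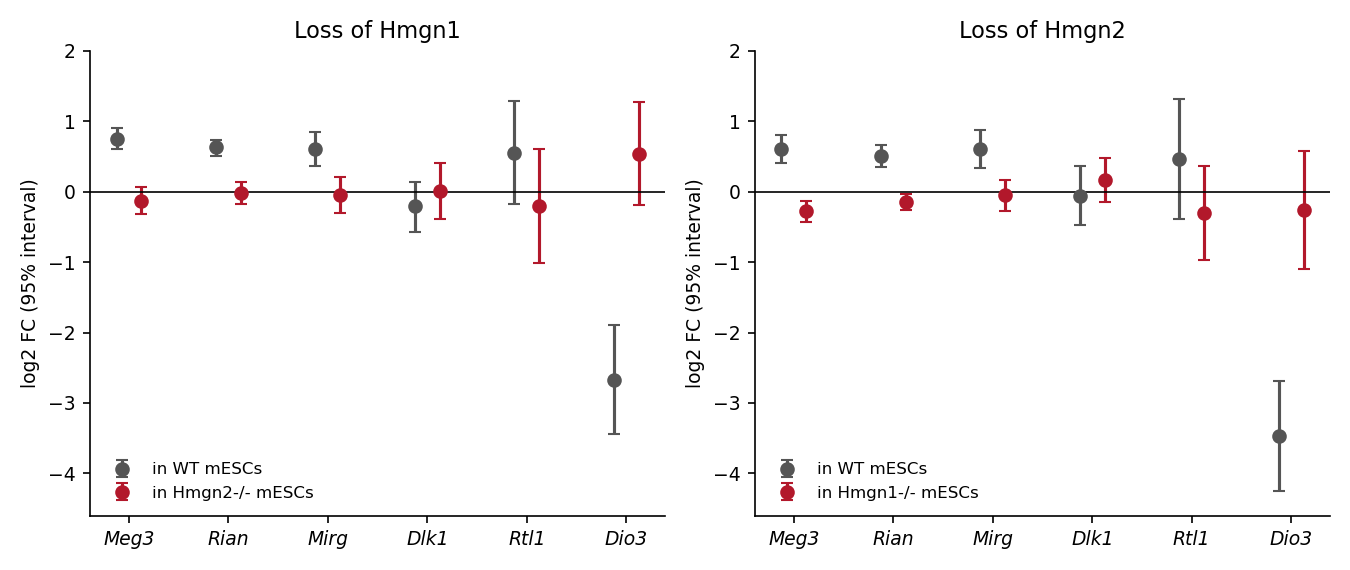
log2 FC of the 6 domain members with and without Hmgn1 (left) and Hmgn2 (right), with 95% intervals from edgeR fits of 3 against 3 libraries. Grey is the single knockout against WT mESCs. Red is the double knockout against Hmgn2-/- (left) and against Hmgn1-/- mESCs (right). The double knockout was edited from the Hmgn2-/- line, so red on the right compares separately derived clones. Meg3, Rian, Mirg and Dio3 are away from 0 in grey, at 0.51 to 0.75 for the first 3, and lie at -0.28 to 0.54 in red.

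Among the 69 other entries of the count table that lie between the starts and ends of Dlk1 and Dio3, 24 were at 0 counts in all libraries and 65 had at most 12 counts in each. They include 59 microRNA hairpins, and 22 of these were at 0. The libraries were made from poly-A-selected RNA, so low counts here do not show that the small RNAs are absent. The entry with the most counts, the snoRNA gene AF357359, lies inside an exon of 4 Rian transcripts, so its reads and those of Rian cannot be told apart. It had 315, 174 and 240 counts in WT mESCs and 383, 346 and 335 in Hmgn1-/- mESCs, with a log2 FC of 0.74 (edgeR adjusted p 2.39e-04), beside 0.43 (0.0628) in Hmgn2-/- and 0.52 (0.0033) in double knockout mESCs. The call in the double knockout was lost without WT replicate 3 (adjusted p 0.0231), double knockout replicate 1 (0.0159) or 2 (0.0169), and in Hmgn2-/- mESCs a call was made without Hmgn2-/- replicate 3 (0.00959). Dio3os, a noncoding RNA divergent from Dio3, had 11, 5 and 8 counts in WT mESCs, 3, 1 and 1 in Hmgn1-/-, 0, 6 and 1 in Hmgn2-/- and 12, 4 and 3 in double knockout mESCs, and was not tested at this depth.

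Outside the domain, 26 genes of the table lie within 1 Mb on either side, and 22 were tested against WT. Amn, which encodes a partner of the endocytic receptor cubilin, stood at 2.78, 2.24 and 2.15 CPM in WT mESCs, at 7.95, 8.27 and 7.95 CPM in Hmgn1-/-, at 8.39, 8.52 and 7.97 CPM in Hmgn2-/- and at 14.4, 17 and 14.8 CPM in double knockout mESCs. It was the 1 flanking gene past the threshold in each comparison, with a log2 FC of 1.74, 1.79 and 2.66 (edgeR adjusted p 3.15e-06, 3.94e-05 and 1.95e-08). In the double knockout Wars (0.28), Traf3 (0.37) and Stk30 (-0.55) also had an adjusted p under 0.01. The call for Stk30 was lost without any 1 of the 6 libraries (log2 FC -0.65 to -0.44, adjusted p 0.011 to 0.0427), that for Traf3 without double knockout replicate 1 (0.0146) or 2 (0.0158) and that for Wars without double knockout replicate 2 (0.012). The nearest tested genes on each side did not pass: Begain, before Dlk1, had a log2 FC of -0.33 (95% interval -0.73 to 0.07), -0.49 (-0.89 to -0.09) and -0.48 (-0.86 to -0.10), and Ppp2r5c, after Dio3, one of -0.12 (-0.25 to 0.00), -0.05 (-0.22 to 0.12) and -0.19 (-0.31 to -0.07).

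**Figure D4:**
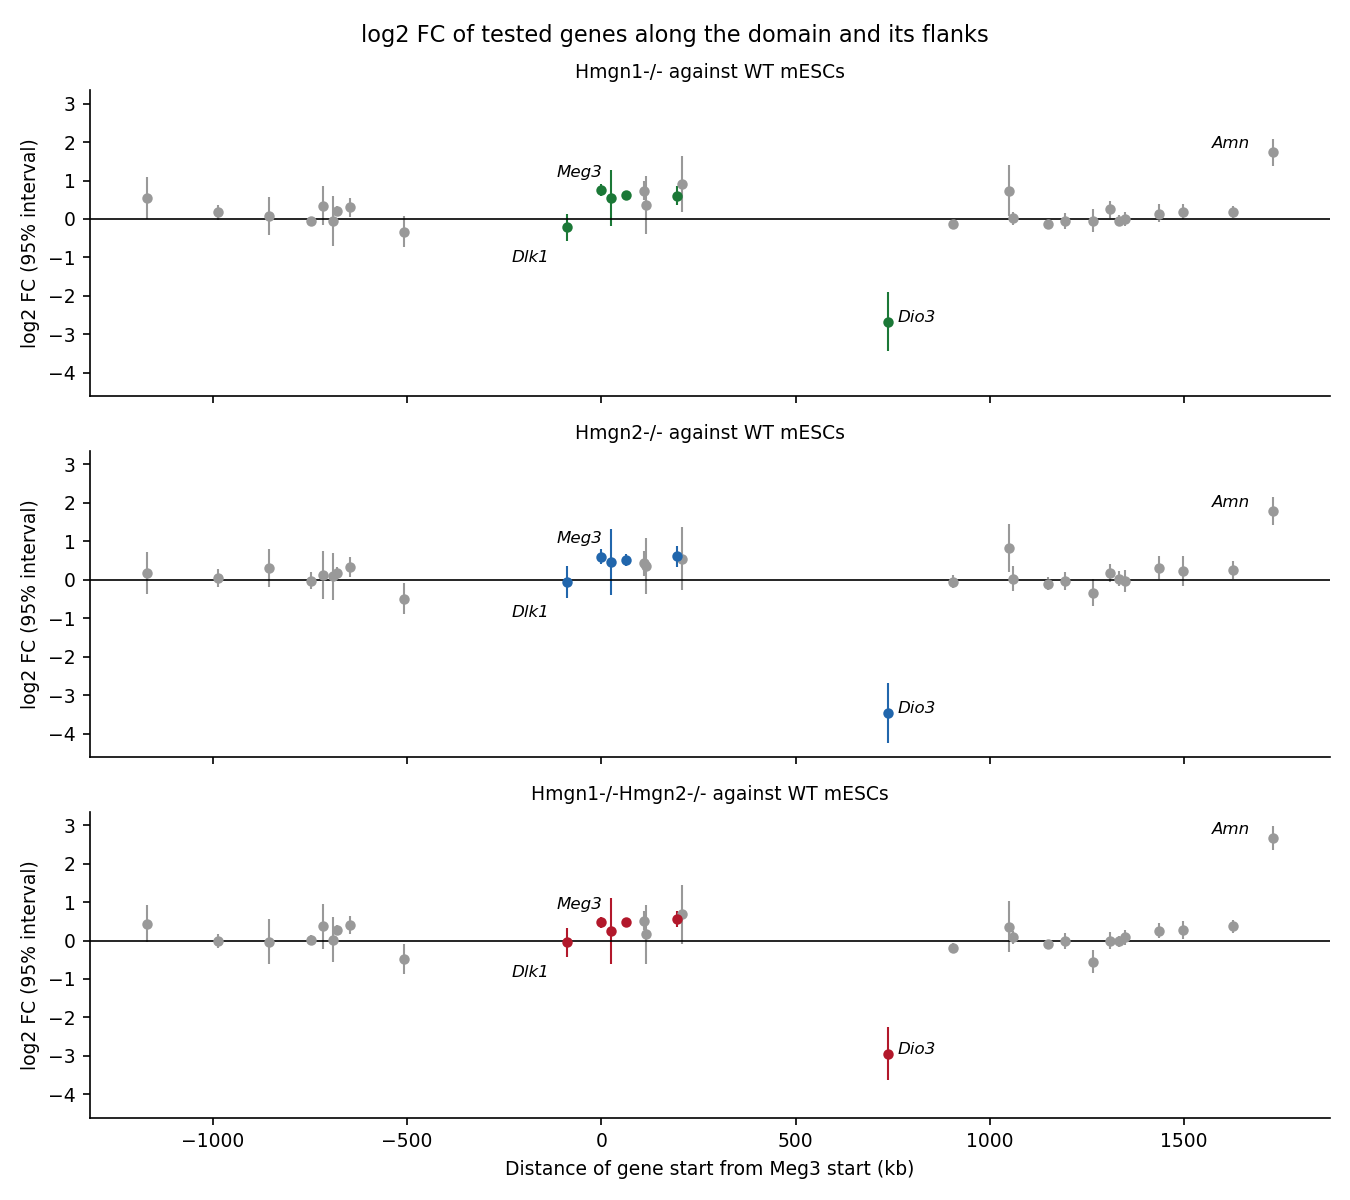
log2 FC with 95% interval of each tested gene along the domain and 1 Mb to either side, against the distance of its start from the Meg3 start in kilobases, with 1 panel for each knockout genotype against WT mESCs (3 libraries each). Domain members are coloured and other genes grey; Dio3 is the lowest member in each panel and Amn, at 1.74, 1.79 and 2.66, the highest flanking gene.

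Of the genes that keep imprints or act at this domain, all 18 were tested, and those that passed had log2 FC under 1 in size. Dnmt3a, a de novo DNA methyltransferase, rose by a log2 FC of 0.70, 0.83 and 0.92 in Hmgn1-/-, Hmgn2-/- and double knockout mESCs, and Dnmt3l, its cofactor, had -0.72, -0.76 and -0.65 and passed as lower in each. In Hmgn2-/- mESCs the call for Dnmt3l was lost without WT replicate 2 (adjusted p 0.0157), WT replicate 3 (0.0155) or Hmgn2-/- replicate 2 (0.0145). Tet1, which oxidises methylcytosine, rose by 0.54 in Hmgn1-/- and 0.57 in double knockout mESCs, and stood at 0.52 (95% interval 0.14 to 0.89) in Hmgn2-/- mESCs. Both calls for Tet1 were lost with all 12 libraries in a single fit (adjusted p 0.0218 and 0.0159). In all 2 rose and 2 fell in Hmgn1-/- mESCs, where 7.28% of all genes rose and 10.1% fell, and 1 rose and 1 fell in Hmgn2-/- mESCs, where 3.30% and 6.66% did, so the list was near the background in both. With single libraries left out, 1 to 2 of the 2 that fell in Hmgn1-/- mESCs kept their call. In the double knockout 5 rose and 3 fell, beside 7.79% and 10.2% of all genes, but with single libraries left out 3 to 4 of these 5 and 1 to 3 of these 3 kept their call. Zfp57, whose product binds methylated TGCCGC, had 0.12 (-0.01 to 0.25), 0.08 (-0.11 to 0.27) and 0.09 (-0.06 to 0.25). The list medians were 0.13, 0.11 and 0.12.

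Of 14 genes that handle thyroid hormone, in which Dio3 acts, 9 were tested, and Dio3 was past the threshold against WT in each knockout. Dio1, an activating deiodinase, had at most 2 counts in a library, and Dio2, another, at most 4. The receptor gene Thra had a log2 FC of 0.26 (95% interval -0.07 to 0.59), 0.45 (0.14 to 0.76) and 0.30 (0.00 to 0.60), none of them past the edgeR test. The median log2 FC of the list was -0.14, -0.18 and -0.09.

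Of 22 Notch pathway genes, in which Dlk1 is counted as a ligand, 20 were tested. The ligand gene Dll1 was past the threshold and lower in each knockout, with log2 FC -1.59, -1.98 and -1.63 in Hmgn1-/-, Hmgn2-/- and double knockout mESCs (edgeR adjusted p 1.03e-04, 0.00135 and 3.93e-04). The receptor gene Notch3 passed as lower, with -0.78, -0.66 and -0.69, and the glycosyltransferase gene Mfng as higher, with 0.79, 0.76 and 0.75. In Hmgn2-/- mESCs the call for Notch3 was lost without WT replicate 1 (adjusted p 0.0287), 2 (0.0308) or 3 (0.0309) or Hmgn2-/- replicate 2 (0.0313). That for Mfng was lost there without WT replicate 1 (0.0125), 2 (0.0464) or 3 (0.0492) or Hmgn2-/- replicate 1 (0.0185) or 3 (0.0139). Over the list 5, 2 and 6 genes rose, beside 7.28%, 3.30% and 7.79% of all genes, and 2, 2 and 2 of 20 fell, near the 10.1%, 6.66% and 10.2% of all genes, with medians of 0.11, 0.02 and 0.04. When single libraries were left out, 3 to 5 of the 5, 0 to 1 of the 2 and 4 to 6 of the 6 that rose kept their call, and 2, 1 to 2 and 2 of those that fell.

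Other imprinted genes, outside the domain, numbered 53 in the table, of which 44 were tested against WT. In Hmgn1-/- mESCs 6 rose and 13 fell, 7 of them past the threshold: Nnat, Peg3, Magel2, H19, Igf2, Th and Ascl2. In Hmgn2-/- mESCs 4 rose and 12 fell, 8 of them past the threshold: Plagl1, Grb10, Peg13, Peg3, H19, Igf2, Th and Ascl2. In the double knockout 6 rose and 13 fell, 8 of them past the threshold: Plagl1, Ddc, Grb10, Peg13, H19, Igf2, Th and Ascl2. Of all genes, 7.28%, 3.30% and 7.79% rose and 10.1%, 6.66% and 10.2% fell. With single libraries left out the counts past the threshold were 6 to 8, 7 to 9 and 7 to 9. Of the genes that rose, 4 to 6 of 6, 0 to 4 of 4 and 5 to 6 of 6 kept their call in these refits, and of those that fell 11 to 13 of 13, 8 to 12 of 12 and 10 to 13 of 13. None of the 4 that rose in Hmgn2-/- mESCs kept it without WT replicate 1, WT replicate 3 or Hmgn2-/- replicate 2.

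With single libraries left out, the genes that were no longer past the threshold were Peg3, Ddc and Plagl1. Genes also came past it, as Peg10 did in Hmgn1-/- mESCs without WT replicate 1 (log2 FC -1.14, beside -0.90 with all libraries). Peg3 was no longer past the threshold in Hmgn1-/- mESCs without WT replicate 2 (log2 FC -0.96) or Hmgn1-/- replicate 3 (-0.94). In Hmgn2-/- mESCs it was not without WT replicate 2 (adjusted p 0.0217) or 3 (0.0186) or Hmgn2-/- replicate 2 (0.0175), nor without Hmgn2-/- replicate 3 (log2 FC -0.84). In the double knockout Ddc was not without WT replicate 2 (-0.96), WT replicate 3 (-0.91) or double knockout replicate 1 (-0.90), and Plagl1 not without WT replicate 3 (adjusted p 0.0112) or double knockout replicate 3 (0.0121). The genes past the threshold were lower, as Dio3 was, and the medians of the list, -0.16, -0.12 and -0.11, were of the other sign from those of the domain members.

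H19, a maternally expressed noncoding RNA, fell with log2 FC of -3.32, -5.24 and -5.44, and its neighbour Igf2, a paternally expressed growth factor, with -2.77, -1.98 and -2.37. H19 had 1 to 5 counts in the double knockout libraries, and its value there was -6.22 without double knockout replicate 3 and -4.94 without double knockout replicate 1. Mest, a paternally expressed gene on another chromosome, passed as higher, with 0.48, 0.49 and 0.58, sizes in the range of those of Meg3, Rian and Mirg. Its call in Hmgn2-/- mESCs was lost without WT replicate 1 (adjusted p 0.0131), WT replicate 3 (0.0228) or Hmgn2-/- replicate 2 (0.0191). Grb10 rose by 0.33 in Hmgn1-/- mESCs and fell in the other knockouts, with -3.20 in Hmgn2-/- and -2.95 in double knockout mESCs.

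**Figure D5:**
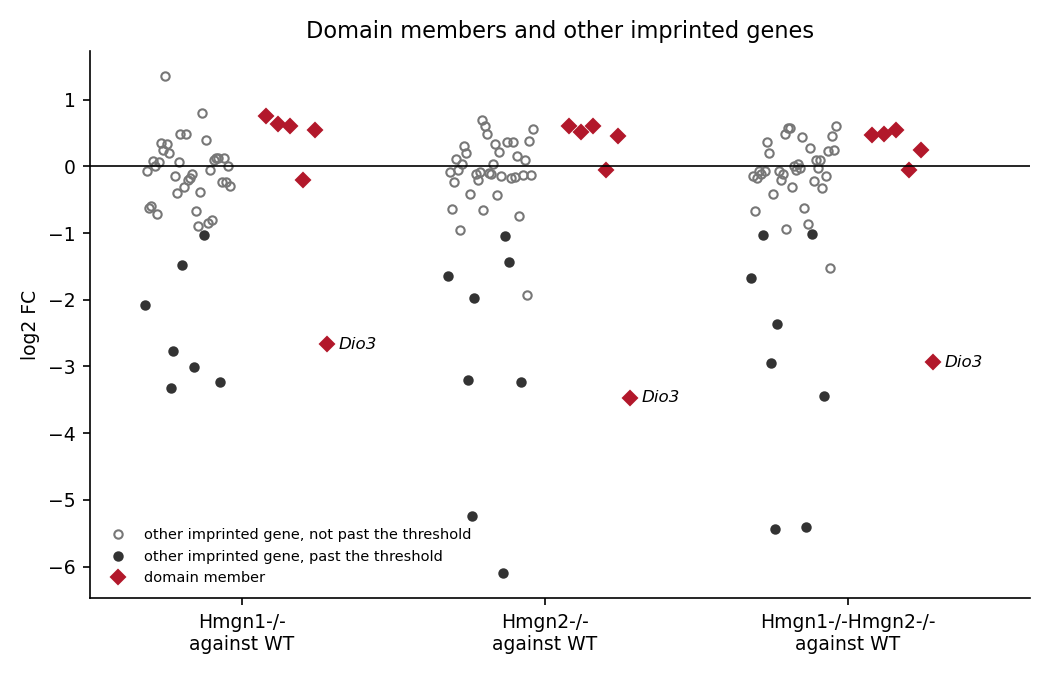
log2 FC of the 6 domain members (red diamonds) and of the 44 tested imprinted genes outside the domain (circles, filled where past the threshold) in each knockout genotype against WT mESCs, from edgeR fits of 3 against 3 libraries. The filled circles and Dio3 lie below 0, while Meg3, Rian and Mirg lie at 0.47 to 0.75.

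Markers of other cell types differed between the same groups as the members. The 12 primitive endoderm markers summed to 147, 186 and 191 CPM in WT mESCs, 489, 402 and 411 in Hmgn1-/-, 566, 509 and 367 in Hmgn2-/- and 1070, 1050 and 977 in double knockout mESCs, with 8, 9 and 12 of 12 genes past the threshold and higher. Lama1 was the most abundant of them in WT and both single knockouts and Col4a1 in the double knockout, and none of the 12 was at 0 counts in a library. Amn, named among the flanking genes, is on this list.

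The 8 trophoblast markers went the other way, at 325, 372 and 507 CPM in WT mESCs, 82.9, 80.5 and 110 in Hmgn1-/-, 113, 115 and 152 in Hmgn2-/- and 94, 107 and 121 in double knockout mESCs. Of 7 tested, 4 were past the threshold and lower in each knockout, Hand1, Krt8, Krt18 and Gata3, and Krt8 was the most abundant in WT mESCs at 213 CPM. Of the 8, 1 was at 3 counts or fewer in every library of each knockout. The 12 fibroblast markers summed to 26.2, 22.6 and 27.6 CPM in WT mESCs, 11.1, 11 and 11.1 in Hmgn1-/-, 11.4, 11.5 and 12.7 in Hmgn2-/- and 10.9, 14.9 and 12.2 in double knockout mESCs. Thy1 led them in WT mESCs at 11.4 CPM, 3 of the 12 were at 3 counts or fewer in every WT library and 6 in every library of each knockout, and 3 of 5, 3 of 5 and 4 of 6 tested genes were past the threshold and lower.

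The 8 primed epiblast markers summed to 837 ± 56.4 CPM in WT mESCs, 753 ± 62 in Hmgn1-/-, 706 ± 74.9 in Hmgn2-/- and 674 ± 34.3 in double knockout mESCs (SD, n = 3 each), with Dnmt3b the most abundant and T, Pou3f1 and Fgf5 past the threshold and lower in each knockout. The 6 neural markers, led by Tubb3, summed to 199 ± 15.1, 205 ± 3.12, 195 ± 4.11 and 195 ± 2.04 CPM in the same order. Within that sum Nes passed as lower, with log2 FC -0.70, -0.79 and -0.78, and Sox1 as higher, with 0.58, 0.69 and 0.81, and Pax6 as higher in Hmgn1-/- mESCs alone (0.75). The call for Sox1 in Hmgn2-/- mESCs was kept in 2 of 6 fits with single libraries left out, and that for Pax6 in 2 of 6. WT libraries, which hold the higher Dio3 and the lower Meg3, Rian and Mirg, thus also hold more trophoblast and fibroblast marker RNA and less primitive endoderm marker RNA. The part of these cell types in the values of the domain members was not tested.

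The genes most like each member in pattern were found over the 12 libraries among 11550 genes by Pearson's r of log2 CPM, as a description only, since the libraries fall into WT and knockout groups. For Meg3 they were Strn4 (r 0.984), Flywch1 (0.973) and Satb1 (0.97), and for Rian Ptprk (0.978), Tfdp1 (0.971) and Nphs1 (0.971). Among the genes most like Mirg were Utf1 (0.953) and Bok (0.949), and Dlk1 was most like Cul4b (0.888), Pdcd6ip (0.87) and Zbtb33 (0.845). Dio3, with a mean of 45.9 counts, and Rtl1, with 26.5, were under the minimum of 50 counts set for this search.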

How the data were processed

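Gene counts of 12 libraries, as deposited by the authors, were integer counts per gene from paired-end reads that the authors aligned to mm10 with STAR; the counting program and strand setting are not given in the sources used here. Counts were fitted for all genes with edgeR 4.0.16 (limma 3.58.1, R 4.3.3): TMM scaling, filterByExpr and the quasi-likelihood test, adjusted by Benjamini-Hochberg over all genes tested. Each comparison used the 6 libraries of its groups, and the departure from additivity all 12. A gene passed at an adjusted p under 0.01 and was past the threshold with a log2 FC of at least 1 in size besides. Figures were drawn with matplotlib 3.10.9 in Python 3.11.15.

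The members and lists were chosen with earlier results of these data known. Named were the members, genes within the domain, flanking genes within 1 Mb that passed the threshold or were nearest, list genes past the threshold and the 3 genes of highest r to each member with a mean of at least 50 counts; list and flanking genes named without passing it were chosen after their values were seen. Not every gene that these rules take is reported here. Gene names were matched to RefSeq and GENCODE by symbol (21563), by synonym (1689) or not uniquely (160).

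TMM factors were 0.97 to 1.02. The chi-square per degree of freedom between replicates was 3.4 to 36.4, highest for Hmgn2-/- replicates 1 and 3, so replicates vary beyond counting error. Replicate numbers, which the labels give to each genotype, were checked as pairs by the correlation of deviations from group means: for replicates 1, 2 and 3 it was 0.208, 0.155 and 0.144 for the double knockout and WT, 0.307, 0.149 and 0.316 for both single knockouts, and 0.47, 0.116 and 0.367 for the double knockout and Hmgn2-/-, which pairs them by the data. The main fits hold no replicate term, also where the numbers pair the libraries. Alternatives were DESeq2 1.42.0, its median-ratio scaling in edgeR, no filter, all 12 libraries in a single fit, the replicate block and each library left out.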

Additional observations from a re-analysis of the deposited data

Results flagged for a closer look

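In 3 members the double knockout departed from the sum of the single-knockout values, by edgeR's test of the interaction of both knockouts over 12 libraries. A shift shared by all knockout lines against WT would also give a departure in this test. The departure from additivity on the log2 scale was -0.87 for Meg3, -0.64 for Rian and 3.22 for Dio3. It was not particular to the domain: markers of trophoblast, fibroblasts and primitive endoderm also departed in this test. The double knockout was edited from the Hmgn2-/- line and each genotype was 1 clone, so an interaction of genotypes and a difference between clones cannot be told apart. An additive value for Dio3 lies under 3 counts in each double knockout library.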

How the results depend on the processing

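The number of members past the threshold was the same under each alternative in each comparison. Of 132 refits of members that passed against WT, 127 kept the call and direction and 5 lost the call, all in Hmgn2-/- mESCs. The number of members that passed there was 2 to 4 with single libraries left out, 2 without WT replicate 3; the cause was not tested. The log2 FC of Dio3 stayed between -3.21 and -2.44 in Hmgn1-/-, -3.77 and -3.29 in Hmgn2-/- and -3.24 and -2.75 in double knockout mESCs.

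For the double knockout against Hmgn1-/- mESCs, 1 member passed with DESeq2, with no filter on low counts and with the replicate block, Meg3 in each; the cause was not tested. Replicates 1, 2 and 3 correlated there at 0.249, 0.0579 and 0.309, at 0.235, 0.0815 and 0.244 for Hmgn1-/- and WT and at 0.112, 0.219 and 0.0648 for Hmgn2-/- and WT, so not every pair was over 0.1; each library correlated best with its own number in the first 2 and not in the last. In the departure from additivity the replicate block called Mirg (-0.63, adjusted p 0.00168), as did DESeq2, the fit with no filter and the fits without Hmgn1-/- replicate 1 (0.00972) or Hmgn2-/- replicate 1 (0.00511). The block changed no other call of a member; with it Dio3 had -2.66, -3.42 and -2.90 against WT.

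With single libraries left out, values that had not passed turned sign over these ranges. Dlk1 was at -0.24 to 0.10 in Hmgn2-/- against WT, -0.24 to 0.11 in the double knockout against WT, -0.03 to 0.25 against Hmgn1-/- and -0.18 to 0.14 against Hmgn2-/-. Rtl1 was at -0.10 to 0.54 in the double knockout against WT, -0.51 to 0.09 against Hmgn2-/-, and -0.34 to 0.10 in Hmgn2-/- against Hmgn1-/-. Mirg was at -0.11 to 0.11 in Hmgn2-/- against Hmgn1-/-, and in the double knockout at -0.16 to 0.05 against Hmgn1-/- and -0.15 to 0.02 against Hmgn2-/-. Dio3 was at -0.50 to 0.27 in the double knockout against Hmgn1-/-, and Rian at -0.06 to 0.01 against Hmgn2-/-.

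Over all genes the count past the threshold for the double knockout against Hmgn2-/- was 6, beside 29 with DESeq2, 21 with no filter, 32 with the replicate block, 18 with all 12 libraries in a single fit and 1 to 12 with single libraries left out. Against WT, Notch pathway genes past the threshold in Hmgn1-/- mESCs numbered 1, and 2 with the replicate block, with all 12 libraries in a single fit and without WT replicate 1. Of 1188 refits of genes outside the domain against WT, not all of them named in the text, 1054 kept their call, 133 lost it and 1 gained it. Exon union length moved 13 of 24 levels per length by more than the SD, and CPM on library totals 1. Depth limits Rtl1, at 13 to 35 counts, and Dio3 in the knockouts, at 7 to 30.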
